A study of Rattus norvegicus with 16 samples.

Results

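Immediate early genes, a set of 10 listed symbols (Fos, Fosb, Fosl1, Fosl2, Jun, Junb, Egr1, Egr2, Atf3 and Ier2), were followed in rat pituitary cells labelled as isolated corticotropes 24 h after exposure to a hormone or cytokine. Each gene was read from the probe set that carries only its symbol in the array annotation. By that rule 9 of the 10 were measured, among 14557 genes with a single symbol. Fosl2 had no such probe set in the annotation used here. Each of the 9 had 1 probe set. The donors of the pituitaries were Wistar rats aged 21 days. The cells were selected on beads with an antibody that the protocols name as anti-CRHR1 and the design text as anti-CRH, and were cultured with serum and FGF. The 4 groups of 4 arrays were untreated controls, whose titles give no time, and cultures given 1 of 3 ligands for 24 h. The ligands were CRH (corticotropin-releasing hormone), the cytokine IL-6 (interleukin-6) and eNampt, the extracellular form of nicotinamide phosphoribosyltransferase. No strain, transgene or treatment other than the ligand differed between groups in the labels, and the sources used here state no doses. They do not say whether a group's 4 arrays derive from different cultures or animals either, so the p-values measure the spread between these arrays, which may be technical.

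Immediate early genes are transcribed soon after a stimulus without new protein synthesis, and their messenger RNAs are short-lived, so that induction is usually a transient pulse. Signals reach them through the MAP kinase pathway and the serum response factor with its partners, which bind the CArG box of the serum response element, and through cAMP, protein kinase A and CREB, which binds the cAMP response element (CRE). Fos-family and Jun-family proteins pair to form the transcription factor AP-1, and Egr proteins are zinc finger factors. In corticotropes CRH acts through a cAMP-coupled receptor and is known to induce Fos, while IL-6 acts through JAK-STAT3 and MAP kinase signalling.

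The sequences before the start sites are shown for 4 members, because Egr1 and Egr2 carry like elements, Ier2 carries a full CRE and Fosl1 differed most between ligands on these arrays. Windows of 250 bases before the start were available for 7 of the 10 listed genes. They are from RefSeq (build GRCr8), 5′ to 3′ along the gene, with CArG boxes and the CRE core in capitals. The window of Egr1 is chr18:26736828-26737077 (plus strand), that of Egr2 chr20:21054442-21054691 (minus strand), that of Ier2 chr19:40399123-40399372 (plus strand) and that of Fosl1 chr1:212183635-212183884 (plus strand).
Egr1: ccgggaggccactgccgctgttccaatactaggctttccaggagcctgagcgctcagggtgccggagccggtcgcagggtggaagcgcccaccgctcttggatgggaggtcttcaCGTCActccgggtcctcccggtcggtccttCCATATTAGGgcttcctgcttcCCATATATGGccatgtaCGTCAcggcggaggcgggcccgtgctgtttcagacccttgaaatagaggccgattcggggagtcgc
Egr2: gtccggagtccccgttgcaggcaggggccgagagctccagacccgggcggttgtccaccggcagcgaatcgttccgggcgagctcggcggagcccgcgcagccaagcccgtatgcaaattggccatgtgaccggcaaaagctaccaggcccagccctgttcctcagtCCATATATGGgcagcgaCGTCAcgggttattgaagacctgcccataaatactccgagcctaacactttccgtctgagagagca
Ier2: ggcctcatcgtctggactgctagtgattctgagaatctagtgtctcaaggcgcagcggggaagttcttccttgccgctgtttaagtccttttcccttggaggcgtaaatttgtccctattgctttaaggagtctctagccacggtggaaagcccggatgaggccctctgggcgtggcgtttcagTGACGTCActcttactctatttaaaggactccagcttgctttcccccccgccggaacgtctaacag
Fosl1: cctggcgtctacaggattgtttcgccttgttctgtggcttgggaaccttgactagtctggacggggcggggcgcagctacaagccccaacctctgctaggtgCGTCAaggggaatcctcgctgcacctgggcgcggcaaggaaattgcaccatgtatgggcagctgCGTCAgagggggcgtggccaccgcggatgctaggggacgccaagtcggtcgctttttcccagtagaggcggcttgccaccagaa
The motifs searched on both strands were the CArG box, the full CRE TGACGTCA, its core TGACG, which overlaps the full CRE and is printed as its reverse complement where it lies on the other strand, the AP-1 site TGANTCA, the Egr site GCGNGGGCG and the TATA box TATAAA. CArG boxes lay in the windows of Egr1 and Egr2, against 1.5% of all 33469 windows. In both genes a CArG box with the letters CCATATATGG ended 74 bases before the start, and a CRE core ended 62 bases before it. Egr1 held a further CArG box, CCATATTAGG, ending 96 bases before the start. The full CRE lay in the Ier2 window alone of the 7, ending 59 bases before the start, and in 1.59% of all windows. The CRE core was present in 5 of the 7 windows (Egr1, Egr2, Fosl1, Ier2 and Junb), against 18.2% of all. No AP-1 site was found in the 7 windows, against 6.34% of all, and an Egr site in the window of Fosl2 alone, against 4.29%. The TATA box letters lay in the windows of Fosb and Junb, against 12.9%. A match describes the letters of these windows and does not show that a factor bound there.

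At 24 h most of the 9 measured genes had higher means on the ligand arrays than on the control arrays, by amounts of which none passed the test over all genes. After eNampt 8 of 9 were higher than in control with a median log2 difference of 0.41. Fos, an AP-1 subunit, was then 1.87-fold higher with no overlap of the arrays as deposited. After IL-6 7 of 9 were higher (median 0.31), and Egr1, a growth-responsive zinc finger factor, was 1.56-fold higher, again with no overlap as deposited. Both overlapped the controls after repeated quantile normalization. After CRH 8 of 9 were higher (median 0.29), with Fos at 1.49-fold. Fosl1 had the largest differences of the set, 2.01-fold after IL-6 and 2.49-fold after eNampt, on a wide spread of control values. The whole set of measured genes also leaned upward, with 65.7% higher in the CRH, 63.2% in the IL-6 and 58.3% in the eNampt comparison, and medians of 0.10, 0.09 and 0.06.

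Differences were tested with limma on all 14557 genes and 16 arrays, with Benjamini-Hochberg adjusted p-values over all genes and a threshold of 0.05. Of the 9 genes 0 passed after CRH, where 0.00% of all genes did, 0 after IL-6 (0.00687% of all genes) and 0 after eNampt (0.0137%). At an unadjusted p under 0.05, 3 of the 9 were higher after CRH (Fos, Egr1 and Ier2), against 5.56% of all genes. After IL-6 the count was 2 (Fos and Egr1), against 4.42%, and after eNampt 3 (Fos, Egr1 and Atf3), against 6.17%. Groups did not overlap on the higher side for 1 of 9 after CRH (Ier2), against 2.05% of all genes. They did not for 1 of 9 after IL-6 (Egr1), against 2.41%, and for 2 of 9 after eNampt (Fos and Atf3), against 2.81%. The 3 comparisons share the 4 control arrays. The 9 genes were chosen with earlier results of these data known, so these counts are descriptions only. The moderated F test over the 3 ligands passed for 0 of the 9 genes, where 0.0206% of all genes passed. The lowest adjusted p of that test among the 9 was 0.662, for Fos.

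**Figure D1:**
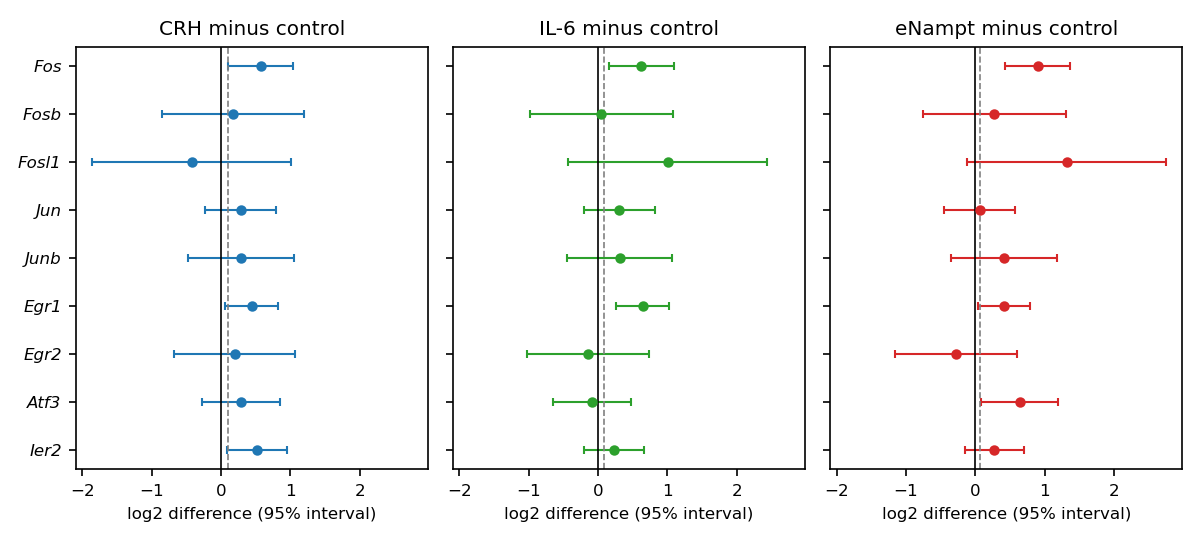
Log2 difference from control of each of the 9 genes (points) with its 95% interval from limma (bars) after CRH, IL-6 and eNampt. The dashed line is the median difference of all 14557 genes (0.10, 0.09 and 0.06). The intervals of Fos and Egr1 lie above 0 in all 3 panels, and those of Fosl1 are the widest.

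The bright end of the distribution was lower on control arrays 3 and 4 than elsewhere. The level below which 9 in 10 values fall was 4.58 and 4.43 (log2) on these arrays and 5.07 to 5.51 on the other 14. Leaving both out, 6 of 9 genes were higher than control after CRH, 4 of 9 after IL-6 and 6 of 9 after eNampt, while 53.0%, 48.0% and 44.6% of all genes were. The medians of the 9 were then 0.12, -0.01 and 0.22. At an unadjusted p under 0.05 there were then 1 (Fos), 2 (Fos and Egr1) and 1 (Fos), against 1.77%, 1.98% and 2.25% of all genes. Repeating the quantile normalization left 5, 5 and 6 of 9 higher, with medians of 0.05, 0.13 and 0.14. After it 1 (Ier2), 0 and 2 (Fos and Atf3) were higher at an unadjusted p under 0.05, against 3.83%, 3.06% and 3.86% of all genes. The groups then overlapped for Ier2 after CRH, Egr1 after IL-6 and Fos after eNampt, and Atf3 after eNampt alone stayed free of overlap (0, 0 and 1 of 9, against 1.48%, 1.76% and 2.19% of all genes).

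The labelled cell type was checked with its markers, of which 4 of 8 were measured. Pomc, the ACTH precursor gene, was at 7.29 to 8.73 over the 16 arrays. Tbx19, the transcription factor that defines the corticotrope lineage, was at 1.20 to 2.03, and Neurod1 at 1.12 to 1.65. Both lay below the 75th percentile of every array. Nr3c1 exceeded that percentile on 4 of the 16 arrays. Array medians were 1.82 to 2.02. Some markers of other cells were bright, such as the prolactin gene Prl of lactotropes at 10.1 to 11.1 and Tagln, a marker of contractile mural cells, at 10.0 to 10.4. Cga, Col1a1, Col1a2 and Col3a1 also exceeded the 75th percentile on all 16 arrays, Gh1 on 15, and Dcn and Pdgfrb on 13 each. Others were dim: the gonadotropin-releasing hormone receptor gene Gnrhr lay below it on all 16 arrays. Lhb, Fshb, Tshb and Lum exceeded it on 1 array each and Pdgfra on 2. Of 6 folliculostellate and stem cell markers, Anxa1 (7.84 to 9.07) and Cdh1 (5.68 to 7.94) exceeded it on all 16 arrays. Sox2 did on 11, Aldh1a2 on 6, S100b on 2 and Aldh1a1 on 0. Pomc was higher than control by 0.72 ± 0.193 (log2, SE) after CRH without overlap of the arrays (adjusted p = 0.479 in limma). It was higher by 0.45 after IL-6 and by 0.53 after eNampt. Of the 4 measured corticotrope markers, 4 were higher than control after IL-6, but 2 were lower after CRH and 2 after eNampt. The lower markers were Nr3c1 and Tbx19, with log2 differences of -0.42 and -0.05 after CRH and -0.21 and -0.14 after eNampt. The mean of 8 fibroblast and mural markers was 4.44 to 5.55 on control, 5.18 to 5.69 on CRH, 4.86 to 5.62 on IL-6 and 5.30 to 6.24 on eNampt arrays. In the same order that of 7 markers of other hormone cells was 3.69 to 4.66, 4.34 to 5.02, 4.47 to 4.65 and 4.38 to 4.61. That of 8 leukocyte markers was 2.16 to 3.16, 2.07 to 2.82, 2.23 to 2.51 and 2.41 to 2.84. Of these, Ptprc, Cd68, Csf1r, Aif1 and Cd3e lay below the 75th percentile on all 16 arrays. Lyz2 exceeded it on 2 arrays, Cd74 on 14 and Cd14 on 15. After eNampt 4 of the 8 were higher than control and 4 lower, with Cd74 at a mean of 6.33 against 4.36 (adjusted p = 0.516 in limma). The 6 endothelial markers lay below the 75th percentile of every array. The part of these cells in the levels below was not tested, and fewer cells of a type cannot be told apart from less RNA per cell in these bulk samples.

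Fos, which encodes the classical partner of Jun in AP-1, was at 3.72, 3.28, 3.42 and 3.79 (log2) on control arrays 1 to 4 and at 4.67, 4.34, 4.38 and 4.42 on eNampt arrays 1 to 4. Every eNampt array lay above every control array, and the eNampt arrays lay close together. On CRH arrays 1 to 4 Fos was at 4.27, 4.17, 3.71 and 4.35, and on IL-6 arrays at 4.19, 3.63, 4.14 and 4.74. CRH array 3 and IL-6 array 2 fell among the controls, and the other 6 arrays of these groups lay above them. The mean level was 3.55 ± 0.24 (SD, n = 4) in control and 4.46 ± 0.15 after eNampt, with CRH (4.13 ± 0.29) and IL-6 (4.17 ± 0.46) between them. The log2 difference from control was 0.90 ± 0.218 (SE; 95% interval 0.44 to 1.37) after eNampt, 0.62 ± 0.218 after IL-6 and 0.57 ± 0.218 after CRH. None passed in limma (adjusted p = 0.227, 0.846 and 0.765). From highest to lowest the order was eNampt, IL-6, CRH and control, and of the neighbours in it only CRH and control had a 95% interval of their difference that left out 0 (0.11 to 1.04). After repeated quantile normalization the 3 differences were 0.59, 0.39 and 0.40. Without control arrays 3 and 4 they were 0.95, 0.67 and 0.63.

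Fosl1, which encodes the Fra-1 subunit of AP-1, was the most variable of the 9, with a residual SD of 1.02. It was at 3.25, 6.42, 4.02 and 3.54 on control arrays 1 to 4 and at 5.71, 4.19, 2.54 and 3.09 on CRH arrays 1 to 4. On IL-6 arrays it was at 5.27, 5.49, 5.48 and 5.02, and on eNampt arrays at 6.06, 5.65, 5.47 and 5.32. The 8 arrays of IL-6 and eNampt lay within a narrow range, above 3 of the 4 control arrays and 3 of the 4 CRH arrays. Control array 2 exceeded every other array, and CRH array 1 lay among the IL-6 and eNampt arrays. The SD over 4 arrays was 1.44 in control and 1.40 after CRH, against 0.22 after IL-6 and 0.32 after eNampt. The difference in spread was not tested. The log2 difference from control was 1.32 ± 0.670 (SE; 95% interval -0.12 to 2.75) after eNampt, 1.01 ± 0.670 after IL-6 and -0.42 ± 0.670 after CRH (0.681, 0.865 and 0.919 for the adjusted p in limma). With control array 2 left out the differences were 2.02, 1.71 and 0.28, and without control arrays 3 and 4 they were 0.79, 0.48 and -0.95.

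Fosb, a Fos-family gene whose splice forms include the long-lived ΔFosB, had mean levels of 4.51 ± 0.65 (SD, n = 4) in control and 4.79 ± 0.094 after eNampt, and of 4.69 ± 0.94 and 4.56 ± 0.89 with CRH and IL-6. The 4 eNampt arrays lay between 4.70 and 4.90, while the arrays of the other groups ran from 3.33 to 6.04. The eNampt arrays thus lay inside the range of each other group. The log2 differences from control were 0.18, 0.05 and 0.28 with an SE of 0.480 (adjusted p from 0.916 to 0.996 in limma), and the 95% intervals reached from -0.98 to 1.30. All 3 differences were negative after repeated quantile normalization (-0.14, -0.29 and -0.15), and that of IL-6 also without control arrays 3 and 4 (-0.01). Its 1 probe set gives no level per splice form.

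**Figure D2:**
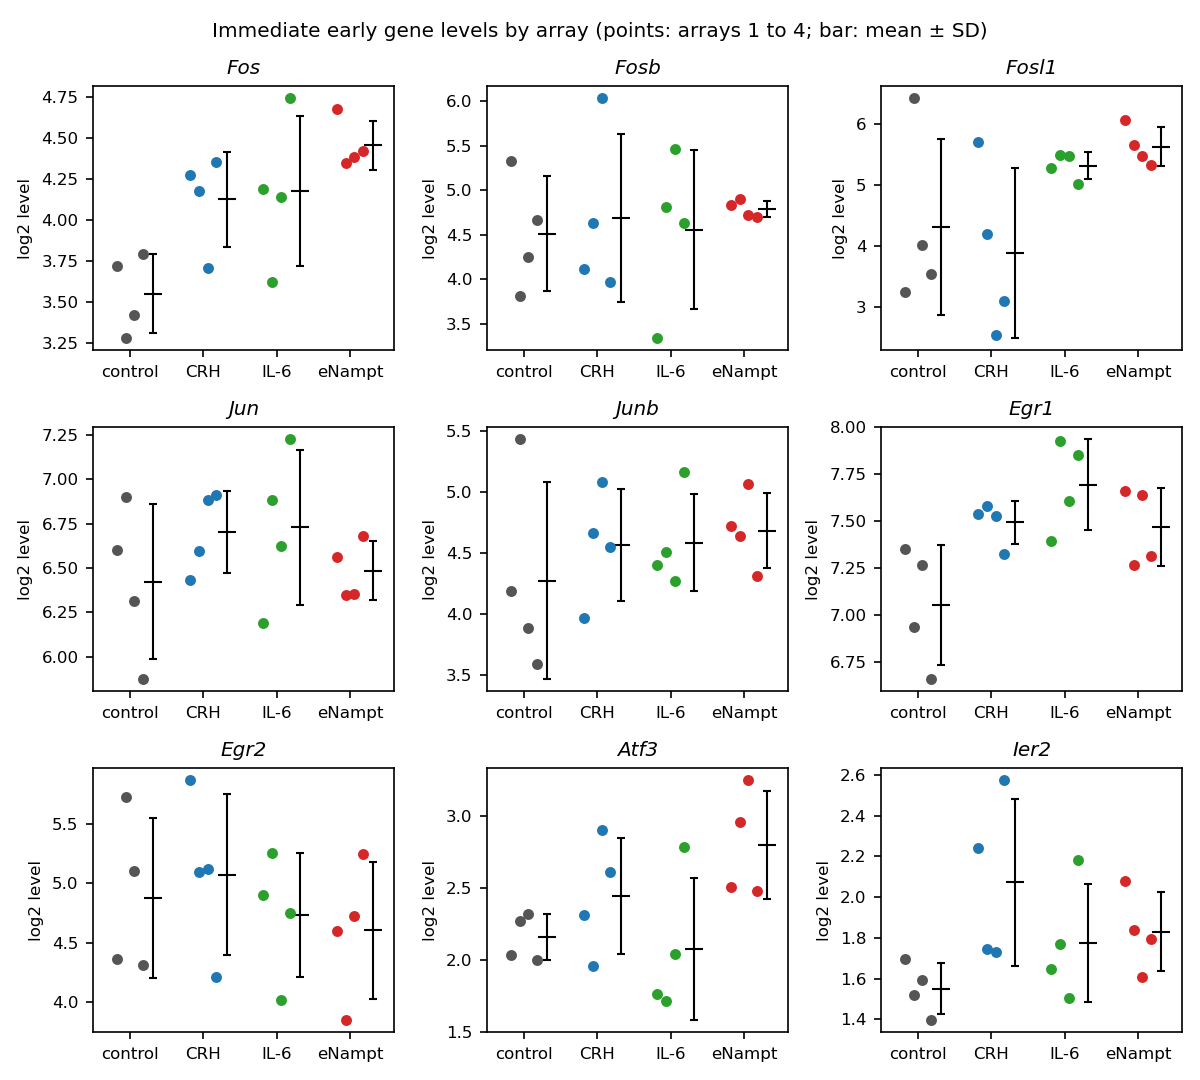
Log2 level of each of the 9 genes on the 16 arrays (points, arrays 1 to 4 from left to right in each group), with the mean and SD of the 4 arrays beside them. Each panel has its own axis, which does not start at 0. For Fos every eNampt point lies above every control point, and for Fosl1 the control points run from 3.25 to 6.42.

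Jun and Junb, the basic leucine zipper partners of the Fos proteins, overlapped between all groups. Jun was at 5.87 to 6.90 on the control arrays, at 6.43 to 6.91 after CRH, at 6.19 to 7.23 after IL-6 and at 6.35 to 6.68 after eNampt. Its log2 difference from control was 0.28 for CRH, 0.31 for IL-6 and 0.06 for eNampt, each with an SE of 0.239 (adjusted p from 0.847 to 0.968 in limma). The highest upper bound of the 3 intervals was 0.82. Junb was at 3.59 to 5.43 on the control arrays, which covered the whole range of the other 12 arrays (3.96 to 5.16). Its differences were 0.29, 0.31 and 0.41 with an SE of 0.356 (adjusted p from 0.809 to 0.926). The sign turned with the choice of control arrays for both. Without control arrays 3 and 4 the differences were -0.05, -0.02 and -0.27 for Jun and -0.25, -0.23 and -0.13 for Junb, and those of Jun were also negative after repeated quantile normalization (-0.18, -0.06 and -0.39).

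Egr1, which is induced through the serum response element, was at 7.35, 6.94, 7.26 and 6.66 on control arrays 1 to 4 and at 7.39, 7.92, 7.60 and 7.85 on IL-6 arrays 1 to 4. The lowest IL-6 array lay just above the highest control array. On CRH arrays it was at 7.54, 7.58, 7.53 and 7.32, and on eNampt arrays at 7.66, 7.26, 7.64 and 7.31. CRH array 4 and eNampt arrays 2 and 4 lay within the control range, and the remaining 5 arrays of these groups above it. Mean levels were 7.05 ± 0.32 (SD, n = 4) in control and 7.69 ± 0.24 after IL-6, with CRH (7.49 ± 0.11) and eNampt (7.47 ± 0.21) between them. The log2 difference from control was 0.64 ± 0.177 (SE; 95% interval 0.26 to 1.02) after IL-6, 0.44 ± 0.177 after CRH and 0.42 ± 0.177 after eNampt. None passed in limma (adjusted p = 0.714, 0.765 and 0.631). After repeated quantile normalization the differences of CRH and eNampt were 0.05 each and that of IL-6 was 0.35. Without control arrays 3 and 4 they were 0.35, 0.32 and 0.55 in the same order.

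Egr2, a zinc finger factor of the same family known for its role in Schwann cell myelination, overlapped between all groups. Its window holds a CArG box and CRE core at the same distance from the start as in Egr1. Whether these sites affect the level of either gene was not tested. Egr2 was at 4.31 to 5.73 on the control arrays, 4.21 to 5.87 after CRH, 4.02 to 5.26 after IL-6 and 3.85 to 5.25 after eNampt. Its log2 differences from control were 0.20 for CRH, -0.14 for IL-6 and -0.27 for eNampt, with an SE of 0.409 (adjusted p from 0.900 to 0.974 in limma). Over the 16 arrays its Pearson correlation with Egr1 was 0.10. After repeated quantile normalization the 3 differences were -0.12, -0.46 and -0.67, and without control arrays 3 and 4 they were 0.03, -0.31 and -0.44.

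Atf3, a stress-induced member of the ATF/CREB family, was at 2.04, 2.28, 2.32 and 2.00 on control arrays 1 to 4 and at 2.51, 2.96, 3.25 and 2.48 on eNampt arrays 1 to 4, with no overlap. On CRH arrays it was at 2.32, 1.96, 2.90 and 2.61, and on IL-6 arrays at 1.76, 1.71, 2.04 and 2.79. IL-6 array 4 alone of its group lay above the controls, and CRH arrays 3 and 4 did. The log2 difference from control was 0.64 ± 0.262 (SE; 95% interval 0.08 to 1.20) after eNampt, 0.29 ± 0.262 after CRH and -0.08 ± 0.262 after IL-6 (adjusted p = 0.618, 0.853 and 0.979 in limma). The eNampt difference was 0.64 without control arrays 3 and 4 and 0.63 after repeated quantile normalization. The control levels (2.00 to 2.32) lie near the array medians of 1.82 to 2.02, and IL-6 arrays 1 and 2 lie below their medians. The eNampt levels (2.48 to 3.25) lie above the array medians. The background was not measured, so how much of the signal is above it, and the size of these differences, are uncertain.

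Ier2, whose window holds the full CRE shown above, was at 1.70, 1.52, 1.59 and 1.39 on control arrays 1 to 4 and at 2.24, 1.75, 1.73 and 2.57 on CRH arrays 1 to 4. The groups did not overlap, but CRH arrays 2 and 3 lay just above the highest control array. It was at 1.51 to 2.18 after IL-6 and 1.61 to 2.08 after eNampt, both overlapping the controls. The log2 difference from control was 0.52 ± 0.201 (SE; 95% interval 0.09 to 0.95) for CRH, 0.22 for IL-6 and 0.28 for eNampt (adjusted p = 0.765, 0.902 and 0.761 in limma). On 12 of the 16 arrays, the 4 controls among them, Ier2 lay below the array's median, so these values carry little signal and the size of the difference is uncertain.

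The ligands were compared with each other for the same 9 genes in 3 pairs. In limma 0 of 9 passed for eNampt against CRH and for eNampt against IL-6 (0.0137% of all genes in each) and 0 for CRH against IL-6 (0.00%). At an unadjusted p under 0.05 there was 1 gene in each pair with eNampt and 0 in the pair of CRH and IL-6, against 4.93%, 3.37% and 3.97% of all genes. No member was free of overlap in any pair, while 2.96%, 2.82% and 2.32% of all genes were. Fosl1 was 3.34-fold higher after eNampt than after CRH (log2 difference 1.74 ± 0.670 SE, 95% interval 0.31 to 3.18, adjusted p = 0.943), with CRH array 1 inside the eNampt range. It was lower after CRH than after IL-6 by a similar amount (-1.43 ± 0.670, interval -2.86 to 0.00, adjusted p = 1.00). Atf3 was higher after eNampt than after IL-6 by a log2 difference of 0.72 ± 0.262 SE (interval 0.16 to 1.28, adjusted p = 1.00), with IL-6 array 4 inside the eNampt range and IL-6 arrays 1 and 2 below their array medians. Fos differed by 0.33 between eNampt and CRH (interval -0.14 to 0.80) and by 0.28 between eNampt and IL-6 (interval -0.19 to 0.75). Egr1 differed by -0.23 between eNampt and IL-6 (interval -0.60 to 0.15). For Fos, Egr1, Jun and Junb the intervals of the 3 pairs allow log2 differences of up to 0.88 in size, so the ligands were not shown to act alike on them.

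The 9 genes varied mostly apart from each other over the arrays. Of the 36 pairs of genes, 27 had a Pearson correlation above 0 over the 16 arrays, with a median of 0.19 and a range of -0.35 to 0.66. The closest pairs were Jun with Junb (0.66), Fos with Ier2 (0.58) and Jun with Egr1 (0.52). With the group means removed the first 2 were 0.69 and 0.56, while Fos with Egr1 went from 0.44 to -0.07. Fosb and Fosl1 were the most opposed (-0.35). These correlations are descriptions over arrays that share their normalization. The mean over the 9 genes was 4.30 ± 0.30 (SD, n = 4) in control and 4.75 ± 0.0965 after eNampt, against 4.56 ± 0.14 with CRH and 4.63 ± 0.24 with IL-6. Control array 4 was the lowest of the 16 at 3.98, and control array 2 at 4.70 lay inside the eNampt range of 4.64 to 4.86. On control arrays 1 to 4, 2, 4, 1 and 1 of the 9 genes exceeded their own mean over the 16 arrays. The count was 5 or 6 on the CRH arrays, 3 to 7 on the IL-6 arrays and 6 or 7 on the eNampt arrays.

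**Figure D3:**
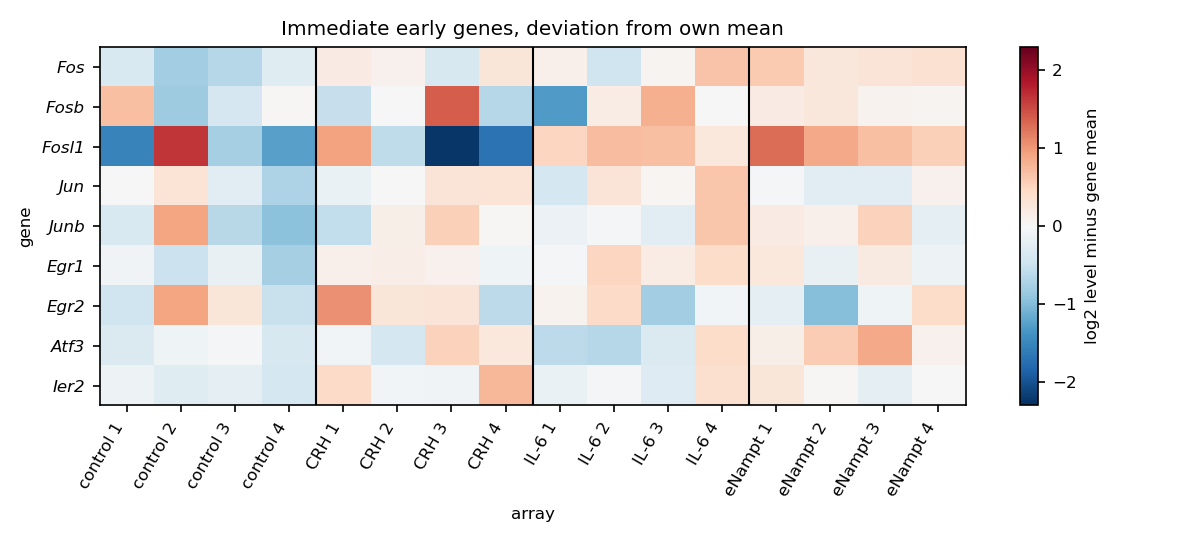
Log2 level of each of the 9 genes (rows) on each of the 16 arrays (columns), minus the gene's own mean over 16 arrays. Red is above and blue below that mean. Control arrays 3 and 4 are nearly all blue, with 1 of 9 genes above its mean on each, and the Fosl1 row is the strongest in both colours.

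The genes whose profile over the 16 arrays was most like the mean of the 9 were Sirpa (Pearson correlation 0.90), Gorasp2 (0.90), Nup98 (0.88), Trim28 (0.88) and Hsph1 (0.87). With group means removed these were between 0.80 and 0.90. For Egr1, the brightest of the 9 probe sets, the nearest were Ctc1 (0.83), Msi2 (0.83), Cxadr (0.82), Pld3 (0.82) and Grb10 (0.81). Both sets hold the 5 highest correlations among all genes other than the members, so high values follow in part from that choice. Whether these genes share regulation was not tested.

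Genes that feed into or restrain the immediate early response were described from 5 further lists, in which 0 genes passed in limma over all genes after any of the 3 ligands. All 5 lists were chosen with earlier results of these data known, so their counts are descriptions only. The counts and medians of the lists include control arrays 3 and 4 and are without repeated quantile normalization. For the immediate early genes above, leaving out those arrays lowered the count of higher genes and the median after each ligand. How far the counts and medians of the lists rest on those arrays was not tested. The shares of all genes given for comparison include dim genes. Of 12 listed feedback genes of the MAP kinase and Egr pathways, 11 were measured. All 11 were higher than control after eNampt (median log2 difference 0.57), 10 of 11 after IL-6 (0.38) and 8 of 11 after CRH (0.49). Of all genes 58.3%, 63.2% and 65.7% were higher in the same order. At an unadjusted p under 0.05 were 1, 2 and 1 of the 11, again in the order eNampt, IL-6 and CRH. In either direction 7.55%, 5.54% and 6.33% of all genes were at such a p. The genes named here and below are the 2 of each list with the smallest p against control in limma. Their large differences and lack of overlap thus follow in part from that choice. Groups did not overlap on the higher side for 2.05%, 2.41% and 2.81% of all genes after CRH, IL-6 and eNampt. Dusp5, a nuclear phosphatase that inactivates ERK, was at 2.40 to 2.90 on the control arrays. It was at 3.22 to 3.97 after CRH, 3.11 to 4.26 after IL-6 and 2.94 to 3.83 after eNampt. The arrays of each ligand lay above all control arrays, with log2 differences of 0.88, 1.03 and 0.82 and an SE of 0.254 (adjusted p = 0.548, 0.601 and 0.442). The subset of 2 control arrays (1 and 2) gave 0.82, 0.97 and 0.76. Dusp10, a phosphatase of JNK and p38, was at 2.75 to 3.33 in control and at 3.44 to 6.03 after IL-6 (log2 difference 1.94 ± 0.619 SE, adjusted p = 0.798).

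Of 20 listed upstream kinases and nuclear factors, 11 were measured. After CRH, IL-6 and eNampt 10, 9 and 10 of them were higher than control (medians 0.45, 0.50 and 0.34). Of all genes 65.7%, 63.2% and 58.3% were higher. Each time 3 of the 11 were at an unadjusted p under 0.05, against 6.33%, 5.54% and 7.55% of all genes. Elk1, the MAP kinase substrate that binds with serum response factor at the CArG box, had control values of 2.66 to 3.94, and was at 3.66 to 5.38 after CRH, 4.45 to 5.91 after IL-6 and 4.47 to 6.52 after eNampt. IL-6 and eNampt arrays lay above all control arrays, and the log2 differences were 1.40, 1.92 and 2.07 with an SE of 0.504 (adjusted p = 0.730, 0.701 and 0.227). Without control arrays 3 and 4 they were 1.98, 2.5 and 2.64, and after repeated quantile normalization 1.09, 1.64 and 1.70. Map2k2, which encodes the ERK kinase MEK2, had a difference of 1.02 ± 0.345 after CRH (adjusted p = 0.700). It was 0.63 after repeated quantile normalization and 1.20 without control arrays 3 and 4.

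Among 27 other immediate early genes, 23 were measured and 17, 15 and 18 were higher after CRH, IL-6 and eNampt (medians 0.18, 0.25 and 0.31). Of all genes 65.7%, 63.2% and 58.3% were higher. An unadjusted p under 0.05 in either direction was seen for 3, 2 and 4 of the 23, against 6.33%, 5.54% and 7.55% of all genes. Csrnp1, a nuclear protein of the immediate early class, was at 2.53 to 2.71 on the control arrays. It was at 1.93 to 2.30 after CRH, below every control array, and at 2.92 to 3.25 after IL-6, above every control array. Its log2 difference between CRH and IL-6 was -0.95 ± 0.142 SE, with an adjusted p of 0.0742 in limma, and these levels lie not far above the array medians. Nr4a2, an orphan nuclear receptor induced by cAMP, had a difference of 0.71 after both CRH and eNampt (adjusted p = 0.661 and 0.463), which became 0.30 and 0.28 after repeated quantile normalization.

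AP-1 dimer partners and related leucine zipper genes were measured in 11 of 15 cases. After each ligand 9 of them were higher than control (medians 0.20, 0.23 and 0.19 for CRH, IL-6 and eNampt). Of all genes 65.7%, 63.2% and 58.3% were higher. An unadjusted p under 0.05 was seen for 1, 0 and 1 of the 11, against 6.33%, 5.54% and 7.55% of all genes. Creb1, the CREB gene, had log2 differences of 1.23 for CRH, 0.62 for IL-6 and 1.42 for eNampt with an SE of 0.448 (adjusted p = 0.730, 0.871 and 0.462), and Jund of 0.20, 0.23 and 0.13. Creb1 was at 3.68 to 6.02 on the control arrays, which overlapped all ligand groups. Of 19 listed genes with known AP-1 sites, 13 were measured, and 9, 6 and 9 of them were higher (medians 0.13, -0.04 and 0.37). Of all genes 65.7%, 63.2% and 58.3% were higher. At an unadjusted p under 0.05 were 0, 0 and 5 of the 13, against 6.33%, 5.54% and 7.55% of all genes. The 5 after eNampt were Mmp9, Timp1, Il6, Ccl2 and Cxcl1. Like the other lists, this list was chosen with earlier results of these data known, so its count is a description only. Whether AP-1 acted on these genes was not tested. After eNampt the chemokine gene Ccl2 was at 5.54 to 7.76 against 3.31 to 4.26 in control (adjusted p = 0.209). Mmp9, a matrix metalloproteinase, had a difference of 1.20 ± 0.338 after eNampt (adjusted p = 0.401), which was 0.61 without control arrays 3 and 4.

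**Figure D4:**
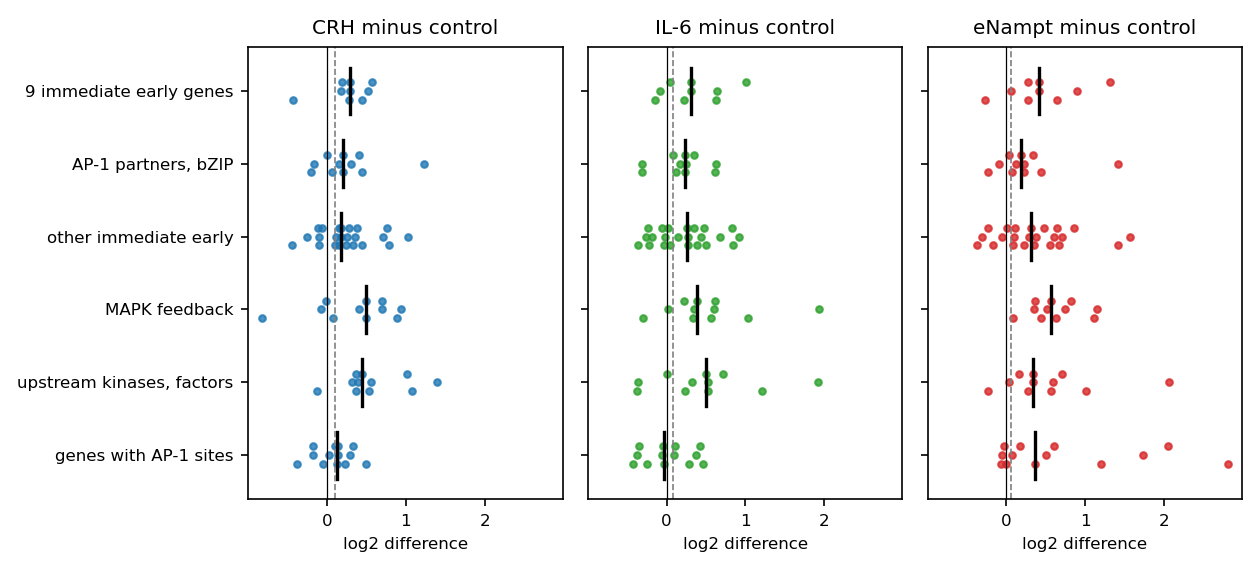
Log2 difference from control of the 9 immediate early genes and of the measured genes of 5 related lists (points, spread vertically for legibility), with the list's median (black bar) after each ligand. Dashed lines give the median of all 14557 genes. Control arrays 3 and 4 are included. The medians of most lists lie to the right of the dashed lines, and that of the genes with AP-1 sites after IL-6 (-0.04) lies to the left.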

How the data were processed

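The authors deposited 1 table of log2 expression values per probe set for 16 Affymetrix arrays, which per the submitters' processing notes came from RMA. Not given in the sources used here are its version, the level of the probe sets and the build. The table holds 36685 probe sets, of which 14824 carry 1 gene symbol, 829 several and 21032 none in the annotation used. Symbols were updated through Entrez identifiers (14670 matched), and the brightest probe set was kept for the 234 genes with more than 1, which gave 14557 genes, dim ones included.

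Groups and replicate numbers came from the sample titles. Group means were estimated from the 16 arrays in 1 model with limma 3.58.1 in R 4.3.3, with 12 residual and 2.28 prior degrees of freedom and two-sided moderated tests of 6 pairs of groups. The script was tested on simulated data. The members and lists were chosen with earlier results of these data known. All measured members are named, and for each related list the 2 genes with the smallest p against control for any ligand. The likeness rule took 5 genes. Alternatives covered probe set choice, dim genes, normalization, variance model, array weights, samples in the fit, the replicate number as a block and left-out arrays. The counts of members without control arrays 3 and 4 and after repeated quantile normalization were added after seeing the data. The number of arrays limits the precision.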

Additional observations from a re-analysis of the deposited data

How the results depend on the processing

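None of the 54 differences (9 genes in 6 pairs of groups) passed in limma under any of the alternatives run, in 912 recomputed values, and 0 members were called with each array left out in turn. The sign changed in 61 of the 912. Ier2, dimmer than the median of all values, has no value among genes above it. After repeated quantile normalization the sign changed for Fosb (-0.14, -0.29 and -0.15 after CRH, IL-6 and eNampt against control), Jun (-0.18, -0.057 and -0.39), Egr2 after CRH (-0.12), Fosb, Junb and Egr1 between eNampt and CRH (-0.014, -0.0017 and 0.0024), and Fos and Junb between CRH and IL-6 (0.0074 and 0.0050). Without control arrays 3 and 4 it changed for Jun (-0.045, -0.020 and -0.27), Junb (-0.25, -0.23 and -0.13) and Fosb after IL-6 (-0.013). Array weights changed it for Egr2 between eNampt and IL-6 (0.026) and Fosb between CRH and IL-6 (-0.20). The cause was not tested.

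With 1 array left out in turn, differences from control that changed sign ranged from -0.27 to 0.45 (Fosb), -1.03 to 0.28 (Fosl1) and -0.069 to 0.48 (Egr2) for CRH, from -0.26 to 0.45 (Fosb), -0.33 to 0.14 (Egr2) and -0.32 to 0.038 (Atf3) for IL-6, and from -0.12 to 0.22 (Jun) and -0.49 to 0.0092 (Egr2) for eNampt. Between eNampt and CRH they ranged from -0.14 to 0.55 (Fosb), -0.079 to 0.29 (Junb) and -0.088 to 0.045 (Egr1). Between eNampt and IL-6 the ranges were -0.18 to 0.53 (Fosb), -0.026 to 0.29 (Junb), -0.37 to 0.12 (Egr2) and -0.036 to 0.19 (Ier2). Between CRH and IL-6 they were -0.23 to 0.14 (Fos), -0.32 to 0.43 (Fosb), -0.21 to 0.14 (Jun) and -0.19 to 0.18 (Junb).

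Over all genes the counts called were small and moved. CRH against control had 0, and 2 after repeated quantile normalization or without control arrays 3 and 4 (0 to 2 with 1 array left out). IL-6 against control had 1, and 0 with all probe sets, among genes above the median, with robust variances on an intensity trend, with weighted arrays, with the 8 arrays of the pair or with the replicate block (0 to 7). eNampt against control had 2, but 5 among genes above the median, 4 after repeated quantile normalization, 4 with the replicate block, and 0 with 8 arrays or without control arrays 3 and 4 (2 to 14). eNampt against CRH had 2, and 1 with 8 arrays (0 to 5). eNampt against IL-6 had 2, but 4 with all probe sets or above the median, 5 with trend and robust variances, 6 with array weights and 1 with 8 arrays (1 to 3). CRH against IL-6 had 0 (0 to 1), and the F test 3 (0 to 7). The replicate block called 0 members. The labels do not say that the numbers mark pairs, and they were not taken as pairs because not every same-numbered pair correlated above 0.1: deviations from group means correlated at -0.18 to 0.30. As a hint from the data, for 8 of 16 arrays the closest array of another group had the same number.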
